A study of Mus musculus with 3 samples.

Results

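The 10 genes described here are C-type lectins and other markers of alternatively activated macrophages. They are Cd209a, Cd209f, Cd209g, Mrc1, Mgl2, Clec10a, Clec4n, Clec7a, Retnla and Lyve1, 10 of the 26124 genes counted. They were picked by symbol, with their counts in these libraries already known, for their joint presence in single macrophage-like and dendritic-like barcodes and for differences between tissues. Their levels and folds are therefore a description, and nothing is read from how many of them differ.

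The study produced 3 mouse single-cell RNA libraries with Chromium Single Cell 3′ chemistry, 1 library in each of 3 groups, so no comparison has a replicate check. The KO testis library came from the dissociated testis of an adult Tsc22d3 knockout mouse of the goGermline line. The chimera cauda library came from the cauda epididymidis of a Tsc22d3 knockout chimera that carried mouse induced pluripotent stem cells (iPSCs) of a Pax7-nGFP iPS x goGermline line, and the KO cauda library from that of a Tsc22d3 knockout of the goGermline line, both aspirated through the skin. All 3 groups thus share the Tsc22d3 knockout background, no wild type was analysed here, and whether a chimera phagocyte stemmed from the host or from the iPSCs was not determined. The labels name spermatids and spermatozoa for the chimera cauda, epididymal cells for the KO cauda and testicular cells for the KO testis, while the phagocytes described here were found by marker genes. Ages of the cauda donors and the deleted exon of Tsc22d3 are not given in the sources used here. Macrophage-like barcodes held 14.7 CPM (unique molecular identifiers, UMIs, of a gene per 1000000 UMIs of its class) of Tsc22d3 in the KO testis, 14.9 in the chimera cauda and 6.62 in the KO cauda. Reads from the 3′ end need not cover the deleted part, so these values do not check the genotype.

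C-type lectin receptors bind sugars through a calcium-dependent recognition domain and take up glycoproteins and microbes. Macrophages use the mannose receptor and the dectins for uptake, and the dectins also signal through Syk. The Cd209 family and the galactose-type lectins also mark dendritic cells. Retnla encodes a small secreted protein that cytokines of the allergic response induce in macrophages, and Lyve1 encodes a hyaluronan receptor of lymphatic endothelium and of macrophages along vessels. The testis holds a large resident macrophage population beside the Leydig cells, and macrophages and dendritic cells line the epididymal duct.

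After filtering, 2092 macrophage-like and 22 dendritic-like barcodes remained in the KO testis, 82 macrophage-like and no dendritic-like barcodes in the chimera cauda, and 968 macrophage-like and 42 dendritic-like barcodes in the KO cauda. Median depth of the macrophage-like barcodes was 5475.5 UMIs in the KO testis, 25541 in the chimera cauda and 17213.5 in the KO cauda. Dendritic-like barcodes had a median of 6999 UMIs in the KO testis and 13875.5 in the KO cauda. Cauda macrophage-like barcodes carried markers of large peritoneal-type macrophages at a summed 12925 CPM in the chimera cauda and 11475 CPM in the KO cauda. The KO testis held 25.6 CPM. The macrophages of the cauda aspirates and of the testis thus also differ in kind. Whether the cauda cells came from the epididymis itself or from elsewhere in the aspirate was not determined. Here and below, tissue stands for the sample taken. The testis was dissociated and the cauda aspirated, so tissue and preparation cannot be told apart. The part of the kind of macrophage or of preparation in the tissue differences was not tested.

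The cauda libraries share barcodes. Of the 184 chimera barcodes kept, 112 were also kept in the KO cauda, and 68 of the 82 chimera macrophage-like barcodes are listed in the KO cauda. These 68 barcodes had a median of 29302.5 UMIs in the chimera cauda and 4847.5 in the KO cauda. In the other direction, 56 of the 968 KO cauda macrophage-like barcodes and 2 of the 42 KO cauda dendritic-like barcodes held at least 500 UMIs in the chimera matrix. The 14 chimera macrophage-like barcodes that are not shared hold 16956 UMIs in all, so the chimera values below rest almost wholly on shared barcodes. KO testis and KO cauda had 7 kept barcodes in common, and KO testis and chimera cauda had none.

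Cd209f and Cd209g are neighbouring members of the mouse Cd209 cluster, 28262 bases apart on chromosome 8 and transcribed away from each other (GRCm38, Cd209f chr8:4102787-4105835 on the minus strand, Cd209g chr8:4134098-4137707 on the plus strand). Cd209a, which encodes a mouse counterpart of human DC-SIGN, lies in the same cluster (chr8:3743397-3748984, minus strand). The promoter windows of these 3 genes are 300 bases each and end shortly after the RefSeq start (GRCm38.p6). That of Cd209g, from base 4134486, lies inside the gene as GENCODE M21 places it, from base 4134098. The annotations thus differ in where Cd209g starts. The windows of Cd209f and Cd209a also reach into their genes, which GENCODE M21 begins at bases 4105835 and 3748984. The 3 windows are printed because Cd209f and Cd209g were seen in the same barcodes and passed 3 UMIs in 1 tissue only. Cd209a did not follow them. In Cd209f and Cd209g the capitals mark the longest run of bases that both windows share, and in Cd209a the longest run shared with Cd209f.
Cd209f, chr8:4105715-4106014, minus strand: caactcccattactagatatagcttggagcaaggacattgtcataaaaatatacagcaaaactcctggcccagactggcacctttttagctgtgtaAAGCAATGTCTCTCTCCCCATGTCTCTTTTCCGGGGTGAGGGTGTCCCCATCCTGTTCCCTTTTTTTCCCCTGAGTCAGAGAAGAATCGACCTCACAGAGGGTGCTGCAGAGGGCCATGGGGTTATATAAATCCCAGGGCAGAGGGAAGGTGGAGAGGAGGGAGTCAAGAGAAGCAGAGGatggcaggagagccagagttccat
Cd209g, chr8:4134486-4134785, plus strand: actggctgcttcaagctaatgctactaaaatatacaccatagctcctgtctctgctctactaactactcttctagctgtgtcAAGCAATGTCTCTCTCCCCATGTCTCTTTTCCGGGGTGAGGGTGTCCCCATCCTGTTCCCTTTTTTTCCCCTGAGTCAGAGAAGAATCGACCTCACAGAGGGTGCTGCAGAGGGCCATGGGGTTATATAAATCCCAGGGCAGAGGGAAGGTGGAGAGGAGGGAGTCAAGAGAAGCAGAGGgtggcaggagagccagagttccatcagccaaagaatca
Cd209a, chr8:3748935-3749234, minus strand: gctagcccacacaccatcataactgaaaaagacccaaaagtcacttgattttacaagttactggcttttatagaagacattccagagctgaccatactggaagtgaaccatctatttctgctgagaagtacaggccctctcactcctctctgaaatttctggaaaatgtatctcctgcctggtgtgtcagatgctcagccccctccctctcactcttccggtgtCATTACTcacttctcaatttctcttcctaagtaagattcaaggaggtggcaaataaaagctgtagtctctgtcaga

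The run shared by Cd209f and Cd209g is 180 bases long. All of it in Cd209g, and its downstream part in Cd209f, lies inside the gene as GENCODE M21 places it. From its first base onward 203 of 204 aligned bases were identical, against 35 of 82 upstream of it. Cd209a and Cd209f shared no run longer than 7 bases. RefSeq windows were matched for 7 of the 10 genes (the other 3 are Clec10a, Clec4n and Lyve1), and the remaining pairs among the 7 shared runs of 6 to 11 bases. The letters TGAGTCA, searched on both strands, occur in the windows of Cd209f and Cd209g, inside the shared run, and in none of the other 5; 5.20% of all 32817 mouse windows hold them. TATAAA was found in 5 of the 7 windows and in 13.6% of all, and GAGGAA in 4 of the 7 and 28.3% of all. These matches describe letters only.

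The likeness of Cd209f and Cd209g extends into their transcripts and bears on the counts. Of the 50-base runs in annotated Cd209f transcripts 29.8% also occur in Cd209g, and 16.6% of those of Cd209g in Cd209f. In the last 500 bases, where 3′ reads fall, neither the protein-coding transcripts of Cd209f nor any transcript of Cd209g share such a run, and of the 5 Cd209f transcripts the retained-intron transcript Cd209f-201 shares 77.8% of its end. Reads of Cd209f-201 could therefore be lost or split. Mgl2 and Clec10a share 270 runs with each other, while Cd209a, Mrc1, Clec7a, Retnla and Lyve1 share none with any gene. In the last 500 bases 9.82% of Mgl2 runs and 13.8% of Clec10a runs also occur in another gene. Of their protein-coding transcripts, Clec10a-204 shares 43.7% of its end, Clec10a-209 20.4% and Mgl2-201 4.21%. The ends of Clec10a-201, Clec10a-202 and Mgl2-202 share none. Reads of Mgl2 and Clec10a could thus also be lost or split, and the part of this in their counts was not tested.

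Cd209f was a testis macrophage transcript. KO testis macrophage-like barcodes held 3858 UMIs, or 333 CPM (95% Poisson interval 322 to 343). Chimera cauda and KO cauda macrophage-like barcodes held 0 UMIs each, which allows up to 1.54 CPM in the chimera cauda and 0.176 CPM in the KO cauda. The fold of KO testis over KO cauda was at least 1893, taken against a floor of 3 UMIs for the class. In dendritic-like barcodes there was 1 UMI in the KO testis and there were 0 in the KO cauda. Here and below intervals and floors cover counting error only, since each group is 1 library.

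Cd209g followed the same pattern. It had 1396 UMIs (120.4 CPM, 114 to 127) in KO testis macrophage-like barcodes, 0 in chimera cauda macrophage-like barcodes and 2 in those of the KO cauda (0.117 CPM). The ratio of KO testis to KO cauda was 1027 (284 to 8493). Dendritic-like barcodes held 0 UMIs in either library. A gene was counted as private to a tissue when it had at least 20 CPM in a phagocyte class there and, in the phagocytes of the other tissue, at most 3 UMIs or no more than in the class that should lack it (Leydig-like or B lymphocyte-like). Cd209f and Cd209g were the 2 of the 10 genes private to the testis, and none was private to the cauda. The 2 Cd209g UMIs sat in 2 KO cauda barcodes, and KO cauda B lymphocyte-like barcodes also held it at 0.112 CPM.

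Cd209a was distributed the other way. Macrophage-like barcodes held 3.45 CPM (40 UMIs) in the KO testis, 49.3 CPM (96 UMIs) in the chimera cauda and 47.0 CPM (803 UMIs) in the KO cauda. KO testis over KO cauda was 0.0733 (0.0520 to 0.101), while chimera cauda over KO cauda was 1.05 (0.840 to 1.30). In dendritic-like barcodes it reached 427 CPM in the KO testis and 447 CPM in the KO cauda. Its order over the classes was thus dendritic-like of either tissue, then cauda macrophage-like, then testis macrophage-like, and within each of the first 2 steps the libraries did not differ beyond counting error.

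Mrc1, the mannose receptor (chr2:14229392-14332057, plus strand), was counted in nearly every testis macrophage. KO testis macrophage-like barcodes held 1672 CPM (1649 to 1696), with at least 1 UMI in 2018 of 2092 barcodes (96.5%). The level was 30.8 CPM (23.5 to 39.7) in the chimera cauda and 4.10 CPM (3.20 to 5.18) in the KO cauda, where 37 of 968 barcodes had it. KO testis over KO cauda was 408 (323 to 523). Chimera cauda over KO cauda was 7.52 (5.24 to 10.8), but 1 barcode held 32 of the 60 chimera UMIs, and only 7 of 82 barcodes had any.

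The galactose-type lectins Mgl2 and Clec10a lie 18646 bases apart on chromosome 11 (Mgl2 chr11:70130329-70137550 and Clec10a chr11:70156197-70170834, both on the plus strand). Mgl2 had 163 CPM in KO testis macrophage-like barcodes, 10.8 CPM in those of the chimera cauda and 6.50 CPM in those of the KO cauda, with KO testis over KO cauda at 25.1 (20.7 to 30.6). Clec10a had 159 CPM in the KO testis, 38.5 CPM in the chimera cauda and 13.7 CPM in the KO cauda, with KO testis over KO cauda at 11.6 (10.1 to 13.3) and chimera cauda over KO cauda at 2.81 (2.14 to 3.66). Both genes were lowest in the KO cauda macrophages. For Mgl2 the intervals of the 2 cauda libraries overlap (6.68 to 16.5 CPM in the chimera cauda, 5.35 to 7.83 CPM in the KO cauda).

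The dectins on chromosome 6 split by tissue. Clec4n, or dectin-2, which binds fungal mannans and signals through Fcer1g, had 467 CPM in KO testis macrophage-like barcodes, 2.57 CPM in those of the chimera cauda and 3.69 CPM in those of the KO cauda. KO testis over KO cauda was 126 (98.7 to 165). Clec7a, or dectin-1, the beta-glucan receptor, had 72.3 CPM in the KO testis, 141 CPM in the chimera cauda and 149.6 CPM in the KO cauda. KO testis over KO cauda was 0.483 (0.446 to 0.522), short of the 4-fold used as a limit, and chimera cauda over KO cauda was 0.945 (0.831 to 1.07). Clec7a was seen in 428 of 2092 KO testis macrophage-like barcodes, 51 of 82 of the chimera cauda and 700 of 968 of the KO cauda. It was thus seen in most macrophage-like barcodes of either cauda library. Clec10a was seen in 40 of 82 in the chimera cauda. The annotation used (GENCODE M21) lists Clec7a as a polymorphic pseudogene, and Clec4n at chr6:123229843-123247021 on the plus strand.

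Retnla and Lyve1 came from few barcodes. Retnla had 50.4 CPM in KO testis macrophage-like barcodes, 337 CPM in those of the chimera cauda and 248 CPM in those of the KO cauda. KO testis over KO cauda was 0.203 (0.186 to 0.222). It was found in 46 of 2092 KO testis barcodes (2.20%), 15 of 82 chimera cauda barcodes (18.3%) and 156 of 968 KO cauda barcodes (16.1%). The 5 richest barcodes held 73.0% of its UMIs in the KO testis, 98.3% in the chimera cauda and 48.2% in the KO cauda. Poisson intervals treat UMIs as independent and are too narrow for a gene this uneven. Lyve1 had 44.7 CPM in KO testis macrophage-like barcodes (173 barcodes), 17.5 CPM in those of the chimera cauda, where 1 barcode held all 34 UMIs, and 2.05 CPM in those of the KO cauda (9 barcodes). KO testis over KO cauda was 21.8 (15.5 to 31.6) for Lyve1.

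**Figure D1:**
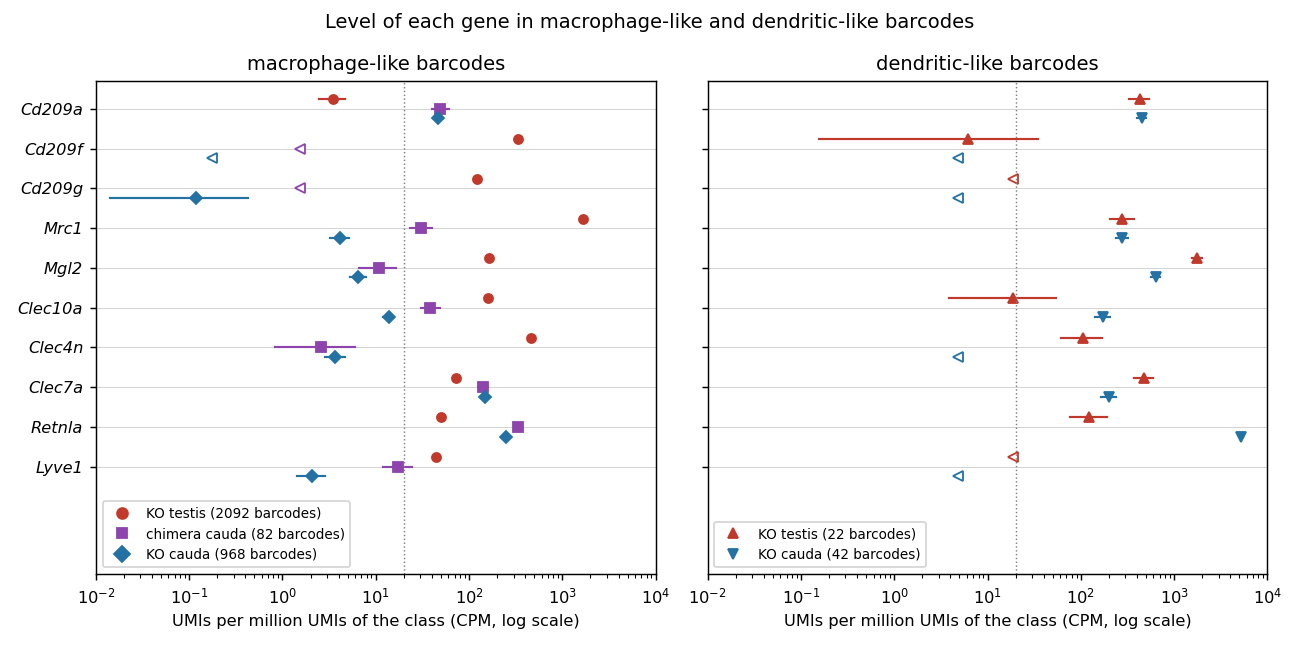
Level of each of the 10 genes (CPM, log scale) in macrophage-like barcodes (left) and dendritic-like barcodes (right), 1 point per library with its 95% Poisson interval; open triangles stand at 3 UMIs where a class has 0, and the dotted line marks 20 CPM. Cd209f and Cd209g are seen in KO testis macrophage-like barcodes at 333 and 120.4 CPM and are at or near 0 in the cauda, and Cd209a is at 427 CPM in the KO testis and 447 CPM in the KO cauda dendritic-like barcodes.

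A gene was compared between classes when the higher class held at least 20 CPM and over 3 UMIs, and called at 4-fold. In the comparison of KO testis over KO cauda macrophage-like barcodes, all 10 genes were compared, with 7 higher and 2 lower. Of all 6229 genes compared 11.4% were called (7.21% higher and 4.17% lower), with a median log2 fold of 0.24. As the 10 genes were chosen with these folds in view, the 2 shares do not bear on each other. Leaving out the 56 KO cauda barcodes with at least 500 UMIs in the chimera matrix, KO cauda levels were 47.2 CPM for Cd209a, 4.0 for Mrc1, 6.63 for Mgl2, 13.3 for Clec10a, 3.70 for Clec4n, 150.5 for Clec7a, 252 for Retnla and 1.61 for Lyve1. Cd209f was still at 0 and Cd209g at 2 UMIs. Macrophage-like barcodes were also taken barcode by barcode, whatever their cluster, by at least 3 macrophage markers and no B, T or NK lymphocyte marker. Every one of the 10 genes then kept its direction, but the folds of the 7 higher genes shrank. That of Mrc1 went to 5.84 on the log2 scale in place of 8.67 and that of Lyve1 to 2.16 in place of 4.45. For Cd209f, at 0 UMIs in the KO cauda, the fold is a bound that also falls as the class gets smaller.

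In the comparison of chimera cauda over KO cauda macrophage-like barcodes, 5 of the 10 genes could be compared and 1, Mrc1, passed 4-fold, where 0.736% of 5976 genes did (0.602% higher and 0.134% lower). On the 14 unshared chimera barcodes alone Mrc1 stood at 5 UMIs in 1 barcode, Clec7a at 2 UMIs, Retnla at 1 UMI and the other 7 genes at 0, each 0 allowing up to 177 CPM. The chimera values of the 10 genes can therefore not be told apart from those of the barcodes it shares with the KO cauda. In the 68 shared barcodes Retnla had 654 UMIs in the chimera matrix and 99 in the KO cauda matrix, Clec7a 273 and 39, and Cd209a 96 and 19.

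Dendritic-like barcodes were defined without the 10 genes, by dendritic markers such as Flt3 and Ccr7. In the KO testis the 22 dendritic-like barcodes held 427 CPM of Cd209a, against 3.45 CPM in macrophage-like barcodes, a ratio of 124 (82.6 to 187). Mgl2 was at 1749.8 CPM against 163 CPM, 10.7-fold higher (9.44 to 12.2), and Clec7a at 469.9 CPM against 72.3 CPM, 6.50-fold higher (5.07 to 8.23). The lower side held 5 genes. Mrc1 had 278 CPM in dendritic-like and 1672 CPM in macrophage-like barcodes (0.166, 0.121 to 0.223), Clec10a 18.5 and 159 CPM (0.117, 0.0241 to 0.342), Clec4n 105 and 467 CPM (0.225, 0.131 to 0.361) and Cd209f 6.18 and 333 CPM (0.0186). Cd209g was at 0 in dendritic-like barcodes, at least 6.49-fold lower. The upper intervals of Clec10a and Clec4n cross the 4-fold limit. In the dendritic-like class Clec10a rests on 3 UMIs, 1 in each of 3 barcodes, and Clec4n on 17 UMIs, with 14 of the 22 barcodes at 0. Retnla, at 124 and 50.4 CPM, came from 1 of the 22 dendritic-like barcodes. In this comparison 12.7% of 6503 genes passed 4-fold (5.77% higher and 6.98% lower).

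In the KO cauda the same contrast ran upward for 5 of the 6 genes that could be compared. Dendritic-like barcodes held 447 CPM of Cd209a, against 47.0 CPM in macrophage-like barcodes, 9.51-fold higher (8.26 to 10.9). Mrc1 had 278 CPM against 4.10 CPM, a fold of 67.7 (51.0 to 90.7), and Mgl2 631 CPM against 6.50 CPM, a fold of 97.1 (78.4 to 121). Clec10a had 171 CPM against 13.7 CPM, 12.5-fold higher (9.83 to 15.8). Retnla had 5239 CPM against 248 CPM, 21.1-fold higher, with 60.7% of its dendritic-like UMIs in 5 barcodes. Clec7a, at 199 and 149.6 CPM, was below the limit (1.33, 1.10 to 1.59). Of 6094 genes 6.81% passed (4.41% higher and 2.4% lower).

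The KO cauda dendritic-like class also carried B lymphocyte markers: all 7 were raised, at a summed 940 CPM against 72.1 CPM in macrophage-like barcodes, and 12 of the 42 barcodes had at least 3 of them. Monocyte markers, 4 of 9 of them raised and 8 seen, summed to 2785 CPM there, against 357 to 608 CPM over the 5 macrophage sub-clusters of the KO cauda, and 4 of 7 plasmacytoid dendritic markers were raised. In the KO testis dendritic-like class 3 monocyte markers and 3 of 5 cycling markers were raised, with monocyte markers at a summed 3246 CPM, against 49.9 to 724 CPM over the 7 macrophage sub-clusters. The part of these markers in the dendritic-like folds was not tested. In the KO testis no dendritic-like barcode had at least 3 B lymphocyte markers. Without the 12 KO cauda barcodes that did, the 30 left held more of each called gene, with 578 CPM of Cd209a, 352 of Mrc1, 811 of Mgl2, 240.4 of Clec10a and 6492 of Retnla. Without the 2 barcodes that hold at least 500 UMIs in the chimera matrix the levels were 443, 275, 638, 170.5 and 5256 CPM for Cd209a, Mrc1, Mgl2, Clec10a and Retnla.

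Between the dendritic-like classes of the 2 tissues, 7 genes were compared. Mrc1 stood at 278 CPM in the KO testis and 278 CPM in the KO cauda, a ratio of 1.0 (0.705 to 1.4), and the ratio of Cd209a was 0.954 (0.722 to 1.25). Mgl2 was 2.77-fold (2.37 to 3.24) and Clec7a 2.37-fold (1.75 to 3.17) higher in the KO testis, neither past 4-fold. Clec4n, with 105 CPM in the KO testis and 0 UMIs in the KO cauda, was at least 21.7-fold higher. Clec10a (18.5 and 171 CPM, 0.108) and Retnla (124 and 5239 CPM, 0.0236) were lower in the KO testis. The KO testis values rest on 17 UMIs for Clec4n, 3 for Clec10a and 20 for Retnla. Of all 6383 genes 10.4% passed 4-fold in this comparison (5.47% higher and 4.93% lower). The ratio of KO testis to KO cauda for Mrc1 was thus 408 in macrophage-like and 1.0 in dendritic-like barcodes, a difference that 1 library per group cannot test. The 2 dendritic-like classes share a rule and need not be the same cells. They had 13 (KO testis) and 14 (KO cauda) of 16 dendritic markers raised, at a summed 2844 and 1271 CPM. Macrophage markers summed to 7519 and 13959 CPM. The most raised genes included Ccl17, Ear2 and Ccl22 in the KO testis and Ccr2, Ltb4r1 and Fcrls in the KO cauda. The part of this in the tissue ratios was not tested.

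**Figure D2:**
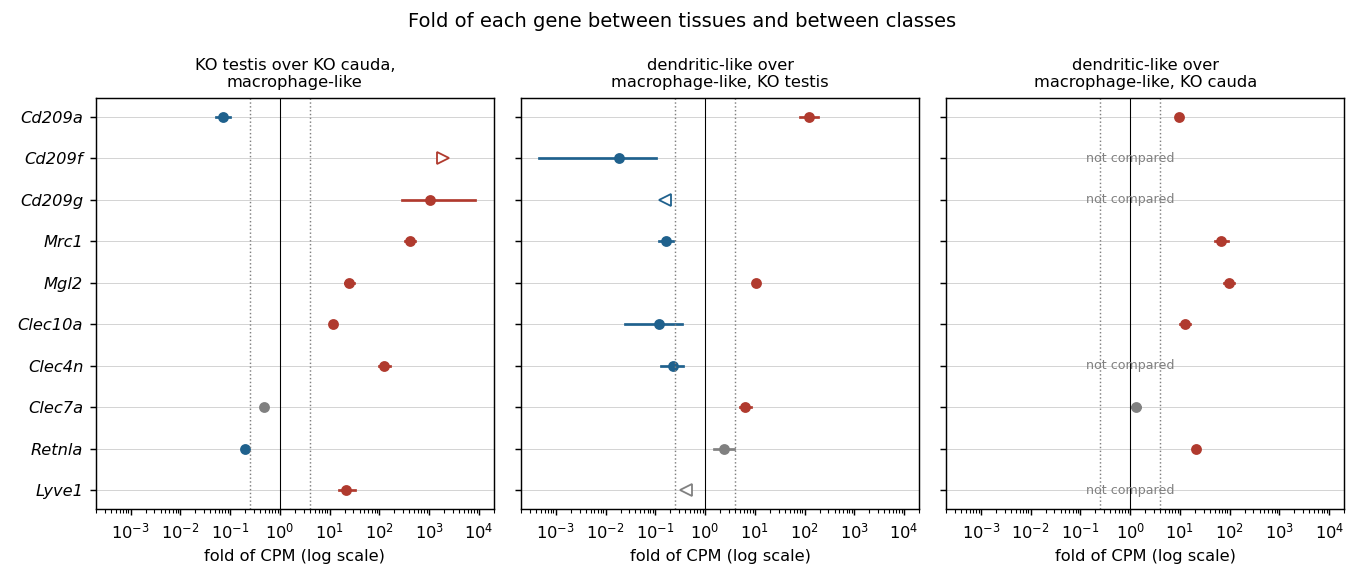
Fold of CPM (log scale) for each gene in KO testis over KO cauda macrophage-like barcodes (left), and in dendritic-like over macrophage-like barcodes of the KO testis (middle) and the KO cauda (right). Points carry 95% intervals of counting error, open triangles are bounds against a floor of 3 UMIs, dotted lines mark 4-fold, red is higher and blue lower; Mrc1 stands at 0.166 in the KO testis and 67.7 in the KO cauda in the contrast of dendritic-like over macrophage-like.

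In the KO testis nearly all UMIs of these genes lay in phagocytes. Phagocytes held 12.4% of the kept UMIs of the KO testis but between 92.5% (Mgl2) and 99.1% (Cd209a) of the UMIs of each gene. In the KO cauda they held 46.3% of the kept UMIs and between 86.1% (Mrc1) and 100% (Lyve1) of those of the 8 genes other than Cd209f and Cd209g. Leydig-like barcodes of the KO testis (3158 barcodes, median 15542.5 UMIs), which should lack these genes, held at most 2.07 CPM of any of them, and KO cauda B lymphocyte-like barcodes (1880, median 8791 UMIs) at most 2.81 CPM. KO testis B lymphocyte-like barcodes (297, median 750 UMIs) held more, with Mrc1 at 65.2 CPM in 16 barcodes, Clec4n and Clec7a at 21.7 CPM each and Cd209f at 18.1 CPM. Outside the phagocytes Mrc1 stood at 39.6 CPM in KO testis Sertoli-like barcodes and Mgl2 at 13.2 CPM in smooth muscle or peritubular myoid-like barcodes. Lyve1, which also marks lymphatic endothelium, had 95.4% of its kept KO testis UMIs in phagocytes.

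Depth differs between the libraries, so each barcode was thinned to 2000 UMIs before shares of barcodes were compared. Of the macrophage-like barcodes 1964 remained in the KO testis (128 were too shallow), 68 in the chimera cauda (14 too shallow) and 961 in the KO cauda (7 too shallow). Mrc1 was then seen in 91.2% of KO testis, 7.35% of chimera cauda and 0.728% of KO cauda macrophage-like barcodes, and Clec4n in 55.1%, 0 and 1.04%. Clec7a was seen in 11.6% of KO testis, 16.2% of chimera cauda and 24.5% of KO cauda barcodes, and Cd209a in 0.356%, 8.82% and 7.08% of them. In classes that should lack these genes, thinned the same way, Mrc1 was seen in 0.574% of 3138 KO testis Leydig-like barcodes and Retnla in 0.758% of 1848 KO cauda B lymphocyte-like barcodes. Mrc1 and Mgl2, each seen in 0.728% (0.293 to 1.495) of KO cauda macrophage-like barcodes, were seen in 0 of those 1848, which allows up to 0.162%. Only 15 KO testis B lymphocyte-like barcodes reached 2000 UMIs, and at 1000 UMIs 77 did, of which 7.79% had Mrc1, 3.90% Clec7a and 2.60% Clec4n. For Cd209f the share was 20.1% (18.4 to 22.0, Clopper-Pearson) in the KO testis, and 0 of 961 in the KO cauda.

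The number of the 10 genes seen in 1 barcode was also counted. The genes were picked with their counts known, and 7 of the 10 were higher in KO testis than in KO cauda macrophage-like barcodes. A larger count in the KO testis thus follows from the list, and no other gene set was put beside it. Mrc1 alone was seen in 91.2% and Clec4n in 55.1% of the thinned KO testis barcodes. At 2000 UMIs the median was 2 genes in KO testis, 0 in chimera cauda and 0 in KO cauda macrophage-like barcodes. None of the 10 was seen in 1.83% of KO testis, 63.2% of chimera cauda and 63.6% of KO cauda macrophage-like barcodes. In the KO testis 40.5% of the barcodes had 2 of the genes, 27.4% had 3 and 8.60% had 4, and the most in 1 barcode was 7. Dendritic-like barcodes had a median of 2 genes in either tissue. Without thinning the medians were 3, 2 and 1 genes for macrophage-like barcodes of the KO testis, the chimera cauda and the KO cauda.

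**Figure D3:**
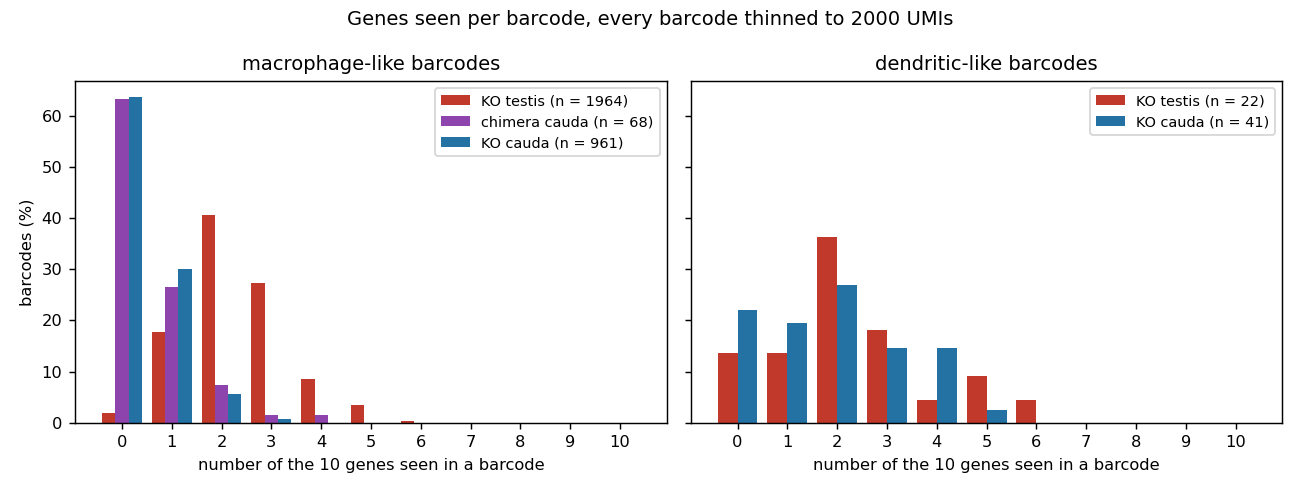
Share of barcodes (%) by how many of the 10 genes have at least 1 UMI, after thinning each barcode to 2000 UMIs, for macrophage-like (left) and dendritic-like (right) barcodes of each library. KO testis macrophage-like barcodes peak at 2 genes with 40.5%, while 63.6% of KO cauda macrophage-like barcodes show 0.

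In single KO testis macrophages Cd209f and Cd209g came together. After thinning, Cd209g was seen in 168 of the 395 barcodes with Cd209f (42.5%, 37.6 to 47.6) and in 38 of the 1569 without it (2.42%, 1.72 to 3.31). Read from the other side, 81.6% of the 206 barcodes with Cd209g had Cd209f, against 12.9% of those without. The pairing held inside single sub-clusters of testis macrophages, with 47.3% against 2.74% in sub-cluster 1 and 44.7% against 3.76% in sub-cluster 2. It was also graded: in unthinned barcodes with 0, 1, 2 to 4, 5 to 9 and 10 or more Cd209f UMIs, Cd209g was seen in 1.96%, 27.4%, 52.5%, 69.9% and 85.6%. The mean number of Cd209g UMIs per barcode over the same bins was 0.0449, 0.685, 1.49, 2.89 and 4.60. Median total depth was 5388.5 UMIs in the lowest bin and 7100 in the highest, and the part of depth and of the 50-base runs that both genes share was not tested.

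Cd209f itself was a gene of a minority of testis macrophages at high count. Of 2092 barcodes 1582 had none, 73 had 1 UMI and 275 had at least 5, and the barcodes with at least 5 held 85.8% of all Cd209f UMIs. Mrc1 by contrast was spread over the class, with 74 barcodes at 0 and 1558 at 5 or more. Clec7a in the KO cauda was likewise widespread and low, with 268 of 968 barcodes at 0 and 187 at 5 or more.

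**Figure D4:**
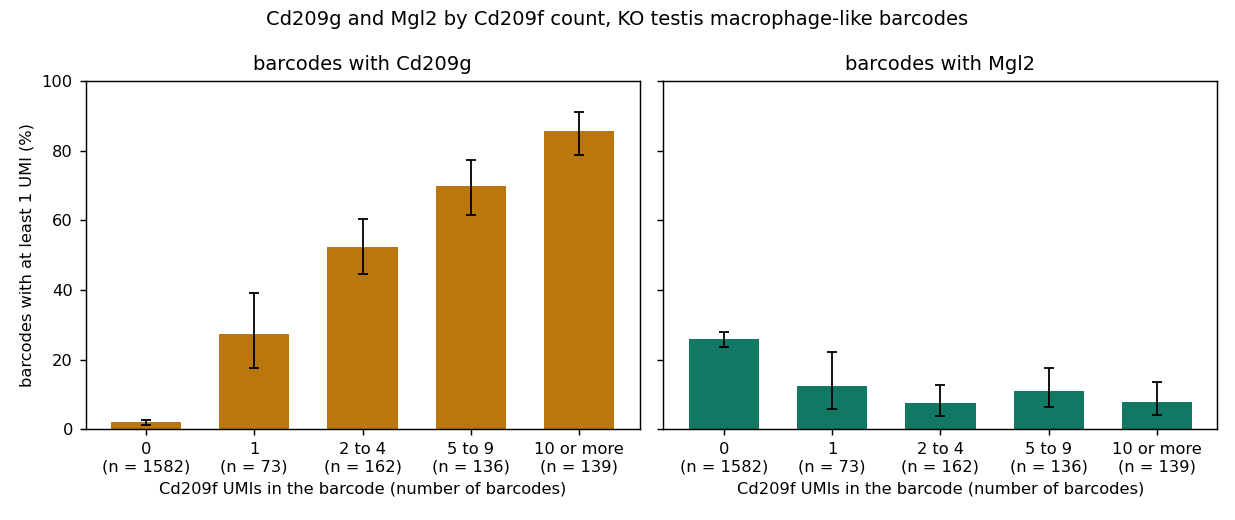
Share of KO testis macrophage-like barcodes with at least 1 UMI of Cd209g (left) or Mgl2 (right), by the number of Cd209f UMIs in the barcode (not thinned; bars are shares, error bars 95% Clopper-Pearson intervals, n the barcodes per bin). Cd209g is seen in 1.96% at 0 Cd209f UMIs and in 85.6% at 10 or more, and Mgl2 in 25.8% at 0 and in 7.91% at 10 or more.

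Mgl2 was seen more often in testis macrophage-like barcodes without Cd209f. Thinned barcodes with Cd209f had Mgl2 in 5.57% (3.52 to 8.31), against 18.0% (16.1 to 19.96) of those without Cd209f, and Clec7a in 5.06%, against 13.3%. Barcodes with Mgl2 had Clec7a in 17.1% (13.05 to 21.8), against 10.6% (9.16 to 12.2) without Mgl2, but Clec4n in 37.5% against 58.3% and Mrc1 in 84.2% against 92.5%. Clec10a, though its gene neighbours that of Mgl2, went with Cd209f: it was seen in 32.7% of barcodes with Cd209f and 22.2% of those without, and in 16.1% of barcodes with Mgl2 and 25.8% of those without. Of the 48 unthinned barcodes with 10 or more Mgl2 UMIs 1 had Cd209f, against 463 of the 1637 without Mgl2. Inside sub-cluster 2 the split was within the counting intervals, with Mgl2 in 2.66% of barcodes with Cd209f and 3.29% of those without.

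The sub-clusters, built without the 10 genes, set these patterns apart. Sub-cluster 3 of the KO testis (360 barcodes) carried the MHC class II genes at a summed 22059 CPM, and Mgl2 stood at 778 CPM there against 52.9 CPM in the other macrophage-like barcodes, 14.7-fold higher (13.3 to 16.3). Cd209f was at 15.9 CPM against 389 CPM (0.0408), Cd209g at 3.97 CPM against 141 CPM (0.0281) and Lyve1 at 3.41 CPM against 52.1 CPM (0.0654), all lower. Clec7a was 3.0-fold higher, and the ratios of Clec10a (0.304), Clec4n (0.466) and Mrc1 (0.695) were below 1, all short of 4-fold. The ratio of Retnla was 2.44, but 1 barcode held 142 of its 178 UMIs in sub-cluster 3, and 6 of 360 barcodes had any. Thus 4 of the 9 genes compared passed, where 2.11% of 6072 genes did (1.12% higher and 0.988% lower). Sub-cluster 3 also had 3 of 16 dendritic markers raised, at a summed 485 CPM against 292 CPM in the other macrophage-like barcodes. Of the 7 B lymphocyte markers 3 were raised, but their sum was 333 CPM against 358 CPM. The part of MHC class II content or of these markers in the differences was not tested.

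Sub-clusters 1 and 2, the largest of the KO testis with 705 and 634 barcodes, differed in Retnla and Lyve1. Retnla had 79.8 CPM in sub-cluster 1 and 1 UMI (0.287 CPM) in sub-cluster 2, and Lyve1 had 84.6 and 7.17 CPM, 11.8-fold higher in sub-cluster 1 (7.87 to 18.5). Of the 368 Retnla UMIs in sub-cluster 1, 1 barcode held 204 and the 5 richest held 293, and 31 of 705 barcodes had any. Erythroid markers, 4 of 5 of them raised, stood at a summed 271 CPM in sub-cluster 1 and 10.04 CPM in sub-cluster 2. Monocyte markers summed to 635 CPM in sub-cluster 1 and 49.9 CPM in sub-cluster 2, with 4 and 5 of the 9 seen, and the part of either list was not tested. Cd209f was lower in sub-cluster 1 (292 and 533 CPM, 0.547), short of the limit. Of 6057 genes 0.528% passed 4-fold between these 2 sub-clusters (0.446% higher and 0.0825% lower in sub-cluster 1). The 30 cycling barcodes of sub-cluster 6 held 1508 CPM of Mrc1 and 0 UMIs of Cd209f and Cd209g. Sub-cluster 5 (54 barcodes), with 7 of 8 Sertoli markers raised, had levels of Cd209f (298 CPM) and Mrc1 (1559 CPM) within the range of the others.

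Among the KO cauda macrophages Retnla was the uneven gene. Sub-cluster 5 (141 barcodes) had 1044 CPM of Retnla against 108 CPM in the other macrophage-like barcodes, 9.66-fold higher (9.08 to 10.3, counting error only), where 0.203% of 5422 genes passed 4-fold (0.184% higher and 0.0184% lower). The 5 richest barcodes held 1974 of the 2666 Retnla UMIs of sub-cluster 5, and 41 of 141 had any, so the call rests on few barcodes. Cd209a was 3.08-fold higher there (110.5 and 35.9 CPM) and Clec7a 2.03-fold (263 and 129.7 CPM). Over all KO cauda macrophages, 50 of 968 barcodes held at least 5 Retnla UMIs and 96.2% of all its UMIs. Cd209a and Clec7a leaned together: thinned barcodes with Cd209a had Clec7a in 41.2% of 68 (29.4 to 53.8), against 23.2% of 893 (20.4 to 26.1) without, and unthinned barcodes with 10 or more Clec7a UMIs had Cd209a in 58.1%, against 20.1% at 0. Retnla and Cd209a did not lean together detectably, with Cd209a in 5.45% of the 55 Retnla barcodes and 7.17% of the 906 others.

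**Figure D5:**
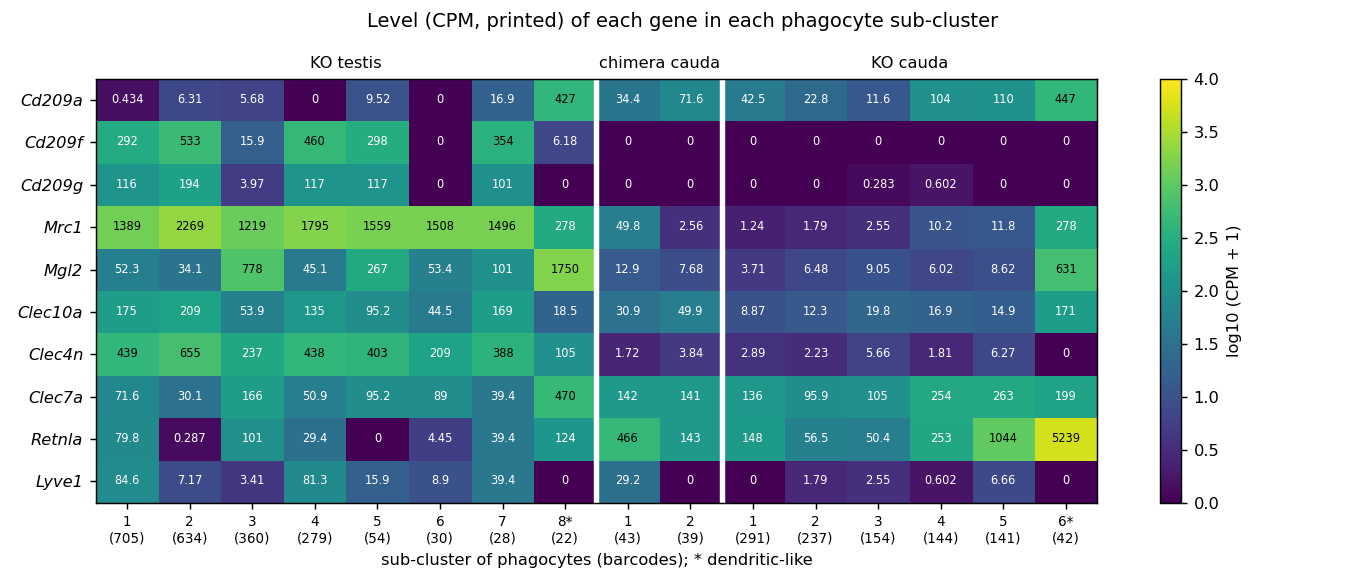
CPM of each gene (printed in each cell, colour on a log10 scale of CPM + 1) in the phagocyte sub-clusters of the 3 libraries, with the number of barcodes below each sub-cluster and an asterisk on the dendritic-like ones. Mgl2 peaks in KO testis sub-clusters 8 (1749.8 CPM) and 3 (778 CPM), where Cd209f is at 6.18 and 15.9 CPM, and Retnla peaks in KO cauda sub-cluster 6 at 5239 CPM.

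In the KO cauda dendritic-like class Cd209a was seen with Mgl2, and Retnla with Mrc1, more often than without. After thinning, Mgl2 was seen in 11 of the 16 barcodes with Cd209a (68.8%, 41.3 to 89.0), against 3 of 25 without (12%, 2.55 to 31.2). Unthinned, 12 of the 13 barcodes with 10 or more Cd209a UMIs had Mgl2, against 6 of the 22 with 0. Mrc1 was seen in 16 of the 16 barcodes with 10 or more Retnla UMIs, against 11 of the 23 with 0, and after thinning in 9 of 18 with Retnla, against 4 of 23 without. Retnla was uneven in this class: 23 of 42 barcodes had 0, 2 had 1 UMI, 1 had 2 to 4 and 16 had 10 or more. The median was 115 UMIs where it was seen. The thinned intervals of the Mrc1 shares overlap. The 2 pairs did not set barcodes apart: Retnla was seen in 9 of the 20 unthinned barcodes with Cd209a and 10 of the 22 without.

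Over the 16 sub-clusters, the gene whose level (log2 of CPM with a pseudocount of 10) followed Cd209f most closely was Cd209g, with a Pearson r of 0.993, then Pla2g2d (0.964), a secreted phospholipase, and Mcur1 (0.927). Mrc1 was followed by Clec12a (0.993), an inhibitory lectin, Fcrls (0.989) and the fractalkine receptor gene Cx3cr1 (0.988). Mgl2 was followed by Fam129a (0.945) and Fgl2 (0.941). The closest genes were weaker matches for Clec10a (Ighm, 0.914), Cd209a (Rin3, 0.909), Clec7a (Rplp2, 0.882), Retnla (Capn2, 0.855) and Lyve1 (Washc4, 0.818). These 16 points come from 3 libraries and 2 tissues, so a gene that separates the tissues scores high, and 2656 genes were searched.

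Other genes of the same pathways were set beside the 10. Of 30 other C-type lectins 12 could be compared between KO testis and KO cauda macrophage-like barcodes, and 5 were higher and 4 lower, where 11.4% of all 6229 genes passed (7.21% higher and 4.17% lower). Clec12a had 282 CPM in the KO testis and 5.80 CPM in the KO cauda (48.6-fold), and Colec12, a scavenger collectin, 476 and 74.9 CPM (6.35-fold), both higher in the KO testis. Among the lectins named after their values were seen, Clec4a2, an inhibitory receptor, was higher (248 and 3.92 CPM, 63.1-fold), while Cd209b was lower (1.12 and 42.9 CPM, 0.0261), as were the Mincle gene Clec4e (6.21 and 87.3 CPM) and its partner Clec4d (12.8 and 149.7 CPM). The called lectins thus lay on both sides, and Cd209b had the direction of Cd209a, opposite to that of Cd209f and Cd209g. Of the 10 genes of dectin signalling, Syk, Fcer1g, Tyrobp and Prkcd among them, 8 were compared and 0 passed 4-fold, with a median log2 fold of 0.04 where the median over all genes was 0.24.

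Of 15 further genes of alternative activation 7 were compared, with 3 higher and 1 lower, beside the same 7.21% and 4.17% of all genes. Klf4 was higher in the KO testis (1003 and 195 CPM, 5.15-fold), while Arg1, the arginase of alternatively activated macrophages, was lower (0.604 and 84.3 CPM, 0.00716), the same direction as Retnla. Of 20 scavenger and hyaluronan genes 16 were compared, with 8 higher and 5 lower. Cbr2 (1296 and 6.97 CPM, 186-fold), F13a1 (1264 and 17.3 CPM, 73.2-fold) and Maf (1755 and 98.2 CPM, 17.9-fold), which marks resident macrophages with Mrc1 and Lyve1, were higher in the KO testis. Of 10 inflammatory genes 3 were compared and 2 were higher in the KO testis, Tnf (248 and 0.644 CPM, 384-fold) and Il1b (191 and 1.17 CPM, 163-fold). Within the KO testis this list summed to 1598 CPM in sub-cluster 3, against 458 CPM in the other macrophage-like barcodes. As the testis was dissociated and the cauda aspirated, the tissue folds of all these lists cannot be told apart from preparation. In chimera cauda over KO cauda macrophage-like barcodes 1 gene of these 5 lists passed, the scavenger receptor gene Stab1 (5.42-fold), where 0.736% of all genes did. Between dendritic-like and macrophage-like barcodes the other C-type lectins had 9 higher and 1 lower of 18 in the KO testis and 8 higher and 1 lower of 16 in the KO cauda. In the same contrast the scavenger and hyaluronan genes had 1 higher and 14 lower of 15 in the KO testis and 2 higher and 7 lower of 12 in the KO cauda. Of all genes 12.7% passed in the KO testis and 6.81% in the KO cauda.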

How the data were processed

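The deposited files are matrices of UMI counts per gene and barcode, made by the authors with Cell Ranger; per the file headers version 4 for the chimera cauda and version 6.1.2 for both KO libraries, so versions differ between the cauda libraries. The submitters' processing notes also name Cell Ranger 6, Seurat 4.2.1 and the build GRCm38.p6. Libraries held 134795047 UMIs in 18108 barcodes (KO testis), 5395856 UMIs in 301167 barcodes (chimera cauda) and 41862286 UMIs in 3937 barcodes (KO cauda).

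Barcodes with at least 500 UMIs, at least 200 genes and at most 20% mitochondrial UMIs were kept. Doublets were marked by the share of simulated doublets among neighbours, at 0.8% per 1000 barcodes, which removed 1493, 0 and 99 barcodes from the KO testis, the chimera cauda and the KO cauda. Each library was clustered alone without the 10 genes (scaled to 10000 UMIs, 2000 variable genes, 30 components, 15 neighbours, Leiden resolution 0.5, seed 7; scikit-learn 1.9.0, leidenalg 0.10.2, igraph 0.11.9), clusters were named from marker lists, and phagocytes were clustered again. A sub-cluster was dendritic-like when a share of at least 0.4 of 16 dendritic markers was raised 2-fold; class names are rebuilt and may differ from the study's. Summed counts were scaled to CPM with exact Poisson intervals, ratios have exact conditional binomial intervals and shares Clopper-Pearson intervals (95%, scipy 1.17.1). With 1 library per group no p-value was computed. The calling step was tested on simulated Poisson sums of the real class sizes with known folds. These sums hold no unevenness between barcodes, so the test does not cover genes as uneven as Retnla.

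All 10 genes are named, and of each of the 5 pathway lists the 4 with most UMIs in phagocytes were eligible to be named, with the 3 most alike genes per member; the members and lists were chosen with earlier results of these data known. Gene positions and transcripts come from GENCODE M21. Protein comparison was planned and not made, since no protein table was used here. Alternatives were other filters, doublets kept, another resolution, classes from markers per barcode, other scalings, other thinning depths, and leaving out shared barcodes, the Sertoli-marked sub-cluster or barcodes with B lymphocyte markers, these last chosen after seeing the data. The closest gene to Clec4n is not reported here.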

Additional observations from a re-analysis of the deposited data

Results flagged for a closer look

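The contrast of dendritic-like over macrophage-like barcodes ran in opposite directions in the 2 tissues for 2 genes. Mrc1 had a fold of 0.166 in the KO testis and 67.7 in the KO cauda, and Clec10a 0.117 in the KO testis and 12.5 in the KO cauda. For Clec10a the KO testis dendritic-like class held only 3 UMIs. Each value is 1 library, so the difference between the tissues was not tested. The dendritic-like classes of the 2 tissues also differ in dendritic and macrophage markers, so the contrast need not compare the same kind of cell.

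Chimera barcodes with fewer than 500 UMIs that the KO cauda does not list, which no comparison uses, also held UMIs of 8 of the genes, 7 of them above the 1.44 CPM that a count of 0 allows. There Cd209a stood at 32.1 CPM, Mrc1 at 17.3 CPM, Mgl2 at 3.84 CPM, Clec10a at 38.4 CPM, Clec7a at 75.8 CPM, Retnla at 142 CPM and Lyve1 at 2.40 CPM. Clec4n had 3 UMIs, and Cd209f and Cd209g had 0.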

How the results depend on the processing

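In the comparison of chimera cauda over KO cauda macrophage-like barcodes, the 1 gene past 4-fold became 4 (2 higher, 2 lower) with classes from marker genes per barcode, 2 with no CPM minimum and 2 without the chimera barcodes listed in the KO cauda. The share of all genes past 4-fold was not computed under the alternatives, so the counts of genes in this section have no background beside them. Genes with at least 20 CPM in chimera cauda macrophage-like barcodes, 5 in the main analysis, became 3 with classes from marker genes and 3 without the shared barcodes. The share of KO testis barcodes with Cd209f that had Cd209g, 42.5% at 2000 UMIs, was 30.7% when thinned to 1000 UMIs and 63.9% at 5000, and the share among those without Cd209f, 2.42%, was 1.55% with classes from marker genes.

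No fold that passed 4-fold in the main analysis changed sign. The 9 genes of KO testis over KO cauda stayed at 8 or 9, the 5 of dendritic-like over macrophage-like in the KO cauda at 5, those in the KO testis at 7 or 8 and the genes private to the testis at 2 under every alternative that gave a value. The marker-gene classes were smaller (777 KO testis, 15 chimera cauda and 338 KO cauda macrophage-like barcodes, none dendritic-like). They lowered the tissue fold of each of the 7 genes higher in the KO testis, where that of Cd209f is a bound that also depends on class size. With doublets kept, the log2 folds of KO testis over KO cauda were 7.95 for Mrc1 in place of 8.67, 3.58 for Lyve1 in place of 4.45 and -2.93 for Retnla in place of -2.30, and with CPM averaged over barcodes Mrc1 had 8.0, and 5.46 in place of 6.08 for dendritic-like over macrophage-like in the KO cauda. For chimera cauda over KO cauda with marker-gene classes, Cd209a had a log2 fold of -2.40 in place of 0.07, Mgl2 -2.75 in place of 0.73 and Retnla 2.26 in place of 0.44, while without the shared barcodes Mrc1 had 6.17 in place of 2.91 and Retnla -2.07; the cause was not tested. Depth limits the 22 dendritic-like barcodes of the KO testis, where a count of 0 allows 18.5 CPM. No paired analysis was possible because each group holds 1 library.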

Other observations

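A KO cauda cluster that was given no name, 25 cycling barcodes with a median of 31821 UMIs, held 37.3 CPM of Cd209a, 23.5 of Mrc1, 29.0 of Mgl2, 33.1 of Clec10a, 49.7 of Clec7a and 31.8 of Retnla. Among chimera cauda macrophage-like barcodes 19 of 82 had at least 3 of the 7 B lymphocyte markers, against 69 of 968 in the KO cauda.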
